A study of Oryza sativa with 7 samples.

Results

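Abscisic acid (ABA) is the hormone that governs seed maturation and dormancy in cereals, and 7 rice genes of its synthesis, breakdown and seed response were followed here. They were chosen by gene identifier and are NCED1 (Os02g0704000), NCED3 (Os03g0645900) and NCED5 (Os12g0617400), ABA8ox1 (Os02g0703600), ABA8ox2 (Os08g0472800) and ABA8ox3 (Os09g0457100), and VP1 (Os01g0911700). All 7 were found among the 35825 rows of the expression table. The files paired no name with these identifiers: a rice gene table gave the names of 5 of them, and NCED1 and NCED5 are names from the choice itself.

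The study compared young grains of rice (Oryza sativa, Kitaake) with and without OsbZIP76, a basic leucine zipper transcription factor. Whole caryopses, which are the grain with its maternal coats, were sampled 2 days after fertilization from plants grown in paddy fields in summer. The groups analysed were WT with 3 libraries, the mutant osbzip76-1 with 2 libraries (replicates 1 and 2) and the mutant osbzip76-2 with 1 library (replicate 2). The other osbzip76-2 replicate was not analysed here. Both mutants are independent alleles of 1 gene in the same background, and no group carried a treatment. The lesion in each allele, and whether plants were pooled, are not stated in the labels, and neither is which replicates came from separate plants. The p-values therefore measure the spread between these libraries, which may be technical in part. Levels are given as RPKM, reads scaled to gene model length and library size, so they can be compared between genes as well as between libraries.

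The cellular level of ABA is set by synthesis and by breakdown. NCED enzymes cleave epoxycarotenoids in the plastid and thereby make the precursor of the hormone, a step usually regarded as rate-limiting. The ABA8ox enzymes are hydroxylases that begin its inactivation. When ABA is present, receptors of the PYL family inhibit PP2C phosphatases, SnRK2 kinases become active and phosphorylate bZIP factors such as TRAB1, and genes with ABA response elements are transcribed. VP1, the rice counterpart of maize VIVIPAROUS1 and Arabidopsis ABI3, is a B3-domain factor that acts with these bZIP factors on genes of seed maturation.

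The libraries held 16897452 to 21107216 reads in genes, recovered from the steps of the RPKM values, and 26910 to 29012 genes had at least 1 read. WT replicate 2 stood apart from the others. The first principal component (45.3% of the variance) gave it a score of 61.3, against -30.5 to 2.97 in the other 5 libraries. It had the lowest level of 5 of 5 endosperm markers, whose summed level was 102 RPKM there, 386 to 396 RPKM in the other WT libraries and 655 to 850 RPKM in the mutants. The protocol text speaks of endosperm RNA while the tissue label is caryopsis. Markers of maternal tissue summed to 152 to 236 RPKM and those of green pericarp to 529 to 912 RPKM, and 0 of the 11 markers was at 0. In such bulk samples fewer cells of a type and less RNA per cell cannot be told apart.

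All 7 genes were expressed at low to moderate level, and each breakdown gene had a higher mean than any synthesis gene. ABA8ox2 was the most abundant, with a mean of 10.6 RPKM over the 6 libraries, followed by ABA8ox1 at 4.41, VP1 at 4.02, ABA8ox3 at 3.11, NCED5 at 1.85, NCED1 at 0.950 and NCED3 at 0.581 RPKM. Neighbours in this order had overlapping ranges in every case. ABA8ox1 exceeded VP1 in only 3 of 6 libraries, so their order is not fixed by these data. NCED5 exceeded NCED1 in 6 of 6 libraries, and the lowest ABA8ox2 value lay above the highest value of VP1, of ABA8ox3 and of each NCED gene.

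**Figure D1:**
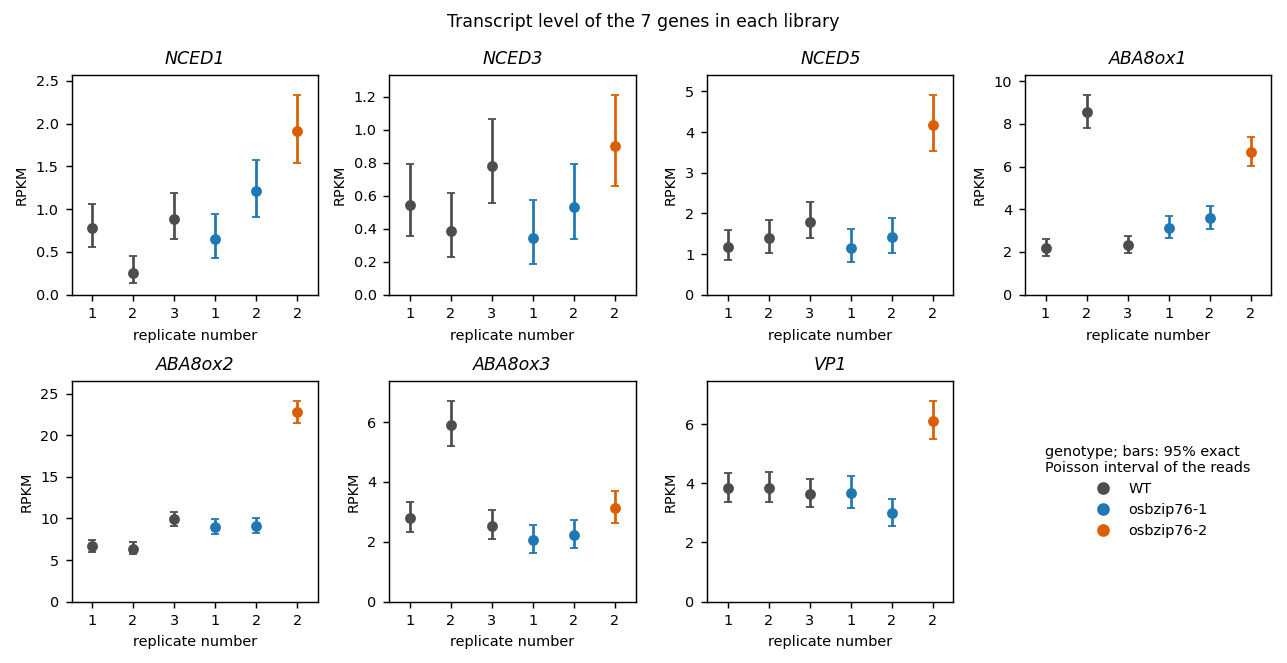
Transcript level (vertical axis, RPKM, from 0) of each of the 7 genes in each of the 6 libraries (horizontal axis, replicate number; colour, genotype), with exact 95% Poisson intervals of the reads behind each point. NCED1, NCED3, NCED5, ABA8ox2 and VP1 had their highest point in the osbzip76-2 library, and ABA8ox1 and ABA8ox3 in WT replicate 2.

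Among the synthesis genes, NCED5 (chromosome 12) was the most abundant and stood out in 1 library. Its level was 1.18, 1.39 and 1.80 RPKM across the WT replicates, then 1.16 and 1.41 RPKM in osbzip76-1 replicates 1 and 2, and 4.19 RPKM in the osbzip76-2 library. Of the osbzip76-1 values 1 lay just under the WT range and 1 inside it, while the osbzip76-2 value was 2.33 times the highest of the others. It rested on 146 reads, with a 95% Poisson interval of 3.53 to 4.92 RPKM that excludes all 5 other levels. Against WT the log2 fold change of RPKM + 1 in osbzip76-2 was 1.09 (SE 0.26, 95% interval 0.48 to 1.70), which did not pass the threshold over all genes (limma adjusted p = 0.225).

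NCED1 (chromosome 2) was measured at 0.779, 0.257 and 0.889 RPKM in WT, then 0.653 and 1.21 RPKM in osbzip76-1 and 1.91 RPKM in the osbzip76-2 library. WT replicate 2 was the lowest and osbzip76-2 the highest library, and the WT and osbzip76-1 ranges overlapped. These levels rest on few reads, from 12 in WT replicate 2 to 94 in osbzip76-2, and the mean was under the minimum of 1 RPKM for the test. With that minimum set to 0.25 RPKM, the log2 fold change in osbzip76-2 was 0.85 (95% interval 0.11 to 1.59, limma adjusted p = 0.526). NCED3 (chromosome 3) was the least abundant of the 7 genes, at 0.544, 0.388 and 0.780 RPKM in WT, then 0.341 and 0.529 RPKM in osbzip76-1 and 0.903 RPKM in the osbzip76-2 library. With 14 to 44 reads per library, the interval of the highest value overlapped that of WT replicate 3, and NCED3 was likewise not tested at the minimum of 1 RPKM.

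Among the breakdown genes, ABA8ox2 (chromosome 8) showed the clearest separation of a single library. Its level was 6.67, 6.37 and 9.93 RPKM in WT, then 9.01 and 9.14 RPKM in osbzip76-1 and 22.8 RPKM in the osbzip76-2 library. Both osbzip76-1 values fell inside the WT range. The osbzip76-2 value, from 1183 reads (interval 21.5 to 24.1 RPKM), was 2.29 times the next highest and 2.51 times the osbzip76-1 mean. Against WT the log2 fold change was 1.48 (SE 0.25, 95% interval 0.87 to 2.09) with a limma adjusted p of 0.0827. The outcome depended on the processing: with voom on the recovered reads the fold change was 1.60 and the limma adjusted p 0.0324, in a fit that called 0.89% of all genes. Without WT replicate 2 it was 1.38 with a limma adjusted p of 0.0220, in a fit that called 2.46%. All of these rest on 1 osbzip76-2 library, which is assumed to vary like those of the other groups.

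ABA8ox1 (chromosome 2) had another pattern. It was at 2.17, 8.55 and 2.34 RPKM in WT, then 3.12 and 3.58 RPKM in osbzip76-1 and 6.69 RPKM in the osbzip76-2 library. WT replicate 2 was the highest library, 3.79 times the mean of the other 2 WT libraries, so that the WT values spanned all of the mutant values. With this library the mutant mean was 1.02 times the WT mean, and without it the ratio was 1.98. In the comparison of osbzip76-2 with WT, leaving out WT replicate 2 changed the log2 fold change from 0.72 to 1.24. This comparison rests on 1 osbzip76-2 library, and the library left out held the highest value of ABA8ox1.

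ABA8ox3 (chromosome 9) was also highest in WT replicate 2. Its level was 2.80, 5.91 and 2.54 RPKM in WT, then 2.05 and 2.22 RPKM in osbzip76-1 and 3.13 RPKM in the osbzip76-2 library. WT replicate 2 stood at 2.21 times the mean of the other WT libraries, both osbzip76-1 values lay under all WT values, and osbzip76-2 fell within the WT range. The log2 fold change of osbzip76-1 against WT was -0.53 (95% interval -1.27 to 0.20) and did not pass the test (limma adjusted p = 0.473). Without WT replicate 2 it was -0.23.

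VP1 (chromosome 1) was the steadiest gene in WT, at 3.83, 3.85 and 3.65 RPKM. The WT mean was 3.78 ± 0.111 RPKM (SD, n = 3), a coefficient of variation of 2.93%, against 21.6% to 83.5% for the other 6 genes. The WT values of VP1 rest on 239, 224 and 235 reads, with 95% Poisson intervals reaching from 3.20 to 4.39 RPKM. Each interval is wider than the range of these values, so counting error alone would allow a larger spread. NCED1 and NCED3, among the other 6 genes, rest on far fewer reads. WT replicate 2 was the highest library for ABA8ox1 and ABA8ox3 and the lowest for NCED1 and, narrowly, ABA8ox2. For VP1 it was not apart from the other WT libraries. The mutants gave 3.67 and 2.99 RPKM in osbzip76-1 and 6.11 RPKM in the osbzip76-2 library, so osbzip76-1 replicate 1 was inside the WT range, osbzip76-1 replicate 2 below it and osbzip76-2 above it. In osbzip76-1 its log2 fold change against WT was -0.15 (95% interval -0.53 to 0.24, limma adjusted p = 0.707), and in osbzip76-2 it was 0.57 (95% interval 0.084 to 1.07, limma adjusted p = 0.569).

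Taking both alleles together against WT, the question of the design, 0 of the 5 genes tested passed an adjusted p of 0.05 in limma, where 0.387% of all 21454 genes tested did. At an unadjusted p under 0.05 the count was also 0 of 5, against 13.7% of genes, and voom on the recovered reads called 0 of 5 as well, against 0.252% of genes. The log2 fold changes were 0.30 for NCED5 (95% interval -0.48 to 1.07), 0.17 for ABA8ox1 (-0.86 to 1.21), 0.66 for ABA8ox2 (-0.14 to 1.45), -0.40 for ABA8ox3 (-1.04 to 0.25) and 0.09 for VP1 (-0.42 to 0.61). Single libraries moved these values, none of which passed the threshold. Without the osbzip76-2 library NCED5 was at -0.10, VP1 at -0.15 and ABA8ox2 at 0.24, and without WT replicate 2 ABA8ox3 was at -0.09. ABA8ox1 was at 0.69 without WT replicate 2 but turned negative without WT replicate 1 (-0.10), WT replicate 3 (-0.07) or the osbzip76-2 library (-0.10). The values of WT and mutant libraries overlapped for 7 of 7 genes, of which NCED1 and NCED3 were not tested. Of all genes tested, 21.6% had groups that did not overlap. With so few genes, the overlap in 7 of 7 is not far from that share. The intervals are wide enough to hold a doubling of RPKM + 1 for NCED5, ABA8ox1 and ABA8ox2, and a halving for ABA8ox3. A p above the threshold therefore does not show that levels were alike.

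Each allele was also set against WT, and both comparisons share the same 3 WT libraries. In osbzip76-1 the log2 fold changes ran from -0.53 for ABA8ox3 to 0.24 for ABA8ox2, and 0 of 5 genes passed the limma threshold, where 0.382% of all genes did. At an unadjusted p under 0.05 the osbzip76-1 count was 0 of 5, against 13.9% of genes, and voom called 0 of 5, against 0.252%. In osbzip76-2 they ran from -0.13 for ABA8ox3 to 1.48 for ABA8ox2, and 0 of 5 passed, against 0.69% of all genes. With voom 1 of 5 passed, ABA8ox2, against 0.89%. At an unadjusted p under 0.05, NCED5, ABA8ox2 and VP1 were higher in osbzip76-2 in limma, 3 of 5, where 5.38% of all genes were higher at that level.

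The difference between the alleles was tested directly. NCED5 differed by 1.18 on the log2 scale between osbzip76-2 and osbzip76-1 (95% interval 0.54 to 1.83, limma adjusted p = 0.366), ABA8ox2 by 1.24 (0.59 to 1.88, limma adjusted p = 0.318) and VP1 by 0.72 (0.20 to 1.24, limma adjusted p = 0.660). In this comparison 0 of 5 genes were called with limma, against 0.214% of all genes, and voom also called 0, against 0.0653%. At an unadjusted p under 0.05 the same 3 genes were higher in osbzip76-2, where 4.02% of all genes were. The alleles therefore cannot be said to differ for these genes at the threshold used.

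**Figure D2:**
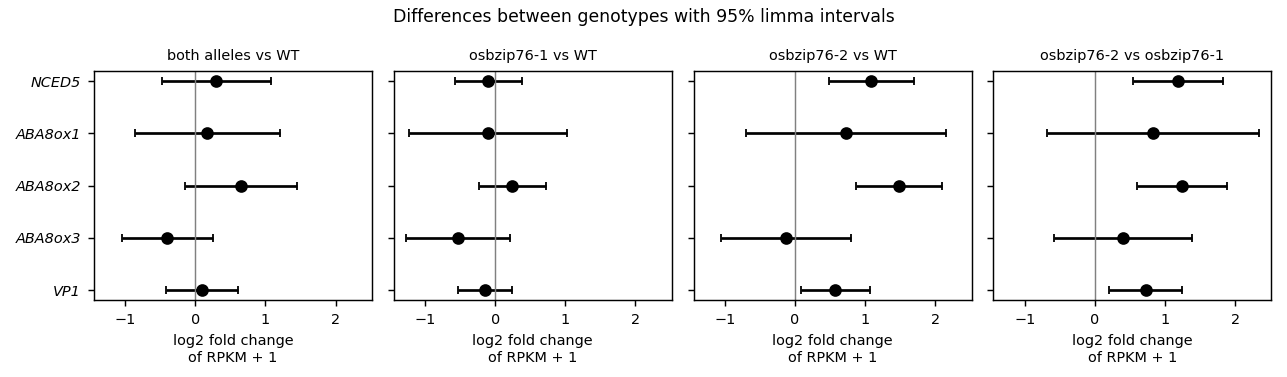
Log2 fold change of RPKM + 1 (horizontal axis) for the 5 genes tested (vertical axis) in 4 comparisons, with 95% limma intervals as bars and a grey line at 0. In both panels of the osbzip76-2 library the intervals of NCED5, ABA8ox2 and VP1 lie above 0, but none of the adjusted p-values passed 0.05.

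Seen by library, the osbzip76-2 library had the highest level of 5 of the 7 genes, NCED1, NCED3, NCED5, ABA8ox2 and VP1. It was the highest library for 13.5% of all genes tested and for 23.8% of genes with a mean of 0.25 to 1 RPKM, the range of NCED1 and NCED3. Levels at least 2 times those of every other library were seen there for 1.1% of genes tested, among them NCED5 and ABA8ox2. The remaining genes, ABA8ox1 and ABA8ox3, peaked in WT replicate 2, which was the highest library for 26.2% of genes and at least 2 times both other WT libraries for 1.79%. These counts describe 2 single libraries.

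Summed synthesis and breakdown transcripts were both most abundant in the osbzip76-2 library. The summed level of NCED1, NCED3 and NCED5 was 2.50, 2.03 and 3.47 RPKM in WT, then 2.15 and 3.15 RPKM in osbzip76-1 and 7.0 RPKM in the osbzip76-2 library. The summed level of the 3 ABA8ox genes was 11.6, 20.8 and 14.8 RPKM in WT, then 14.2 and 14.9 RPKM in osbzip76-1 and 32.6 RPKM in the osbzip76-2 library. Both sums were highest in osbzip76-2, while their osbzip76-1 values lay inside the WT range.

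The ratio of the ABA8ox sum to the NCED sum was 4.65, 10.3 and 4.27 in WT, 6.59 and 4.74 in osbzip76-1 and 4.65 in osbzip76-2. WT replicate 2 alone had a ratio above 10, with the lowest NCED sum and the highest ABA8ox sum of the WT libraries. The osbzip76-2 library, with the highest sums, had a ratio inside the WT range. The group means were 6.39 ± 3.35 (SD, n = 3) in WT and 5.33 ± 1.09 (SD, n = 3) in the mutants, a difference smaller than the spread within WT. Without WT replicate 2 the WT mean was 4.46, below that of the mutants, so the direction turns on that library.

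The makeup of the breakdown transcripts also differed in WT replicate 2. ABA8ox2 made up 57.3%, 30.6% and 67.1% of the ABA8ox sum in WT replicates 1 to 3, 63.5% and 61.2% in osbzip76-1 and 69.9% in osbzip76-2. ABA8ox1 instead was the largest contributor in WT replicate 2, with 41.0% of the sum, against 15.8% to 23.9% elsewhere. In that library the endosperm markers were at their lowest. Their part in the ABA8ox1 and ABA8ox3 levels was not tested. NCED5 was the largest contributor to the NCED sum in 6 of 6 libraries, with 44.9% to 68.2%.

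**Figure D3:**
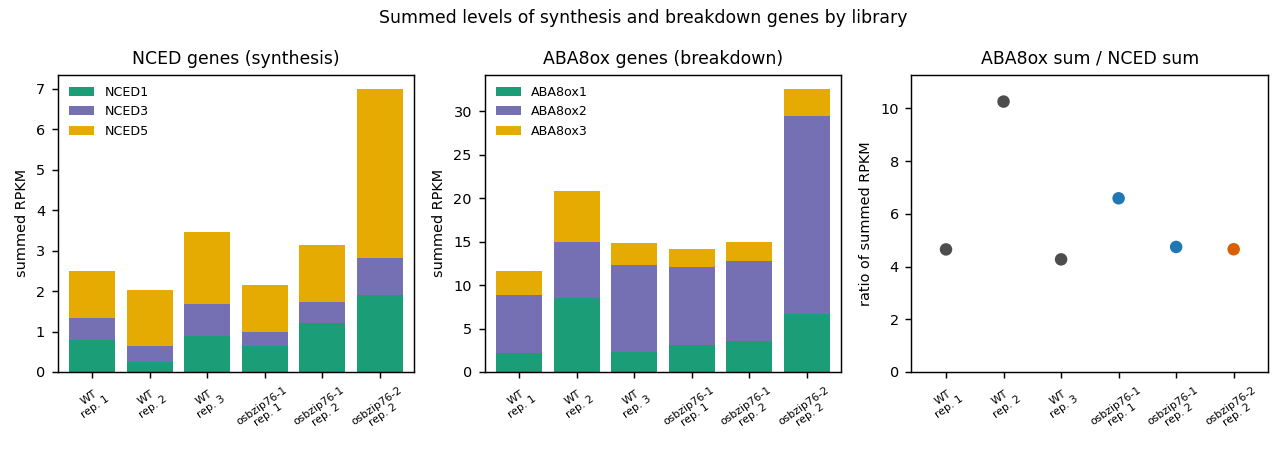
Summed RPKM of the NCED genes (left) and of the ABA8ox genes (middle), stacked by gene for each library, and the ratio of the sums (right; grey WT, blue osbzip76-1, orange osbzip76-2). The osbzip76-2 library had the highest sums, 7.0 and 32.6 RPKM, and WT replicate 2 the highest ratio, 10.3.

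The endosperm, maternal and green pericarp marker sums set all mutant libraries apart from WT, but single markers did not all follow the sums. WT replicate 2 had the lowest endosperm sum and the highest green pericarp sum. It also had the highest maternal sum, at 236 RPKM against 221 RPKM in WT replicate 1. The endosperm marker sum was highest in osbzip76-2, at 850 RPKM, where 4 of 5 markers peaked, and lowest in WT replicate 2. NF-YB1, an endosperm transcription factor, was at 22.4 RPKM in osbzip76-2, 6.42 to 11.1 RPKM in osbzip76-1 and 2.62 to 7.40 RPKM in WT. Os06g0133000, also on the endosperm list, was at 91.4 RPKM in osbzip76-2, 34.0 and 20.8 RPKM in osbzip76-1 and 2.10 to 9.79 RPKM in WT. The more abundant markers, which weigh most in the sum, differed less between the alleles. SUS3, a sucrose synthase, was at 261 RPKM in osbzip76-2, 215 and 235 RPKM in osbzip76-1 and 35.8 to 147 RPKM in WT. Os02g0528200 was at 224 RPKM in osbzip76-2 and 250 and 212 RPKM in osbzip76-1, and Os02g0202400 at 251 RPKM and at 220 and 201 RPKM. The osbzip76-1 libraries had endosperm sums of 750 and 655 RPKM, above all WT libraries. The embryo marker OSH1, a homeobox gene of the shoot meristem, ran from 3.00 RPKM in WT replicate 1 to 7.56 RPKM in osbzip76-1 replicate 1 and was 5.16 RPKM in osbzip76-2. The maternal sum was 166 RPKM in osbzip76-2 and 152 and 165 RPKM in osbzip76-1, against 219 to 236 RPKM in WT. Its 2 markers disagreed in WT replicate 2, where MADS29 was at its highest, 140 RPKM. Os07g0412100 was at 95.9 RPKM there, below the 123 and 109 RPKM of the other WT libraries. WT and mutant values of Os07g0412100 overlapped, with 101 RPKM in osbzip76-1 replicate 2. The green pericarp sum was 529 to 576 RPKM in the mutants, below the 646 to 912 RPKM of WT, and was highest in WT replicate 2. Of its 3 identifiers Os12g0274700 had the opposite order, at 79.1 to 94.8 RPKM in the mutants and 55.9 to 63.2 RPKM in WT. The part of tissue makeup in the levels of the 7 genes was not tested.

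**Figure D4:**
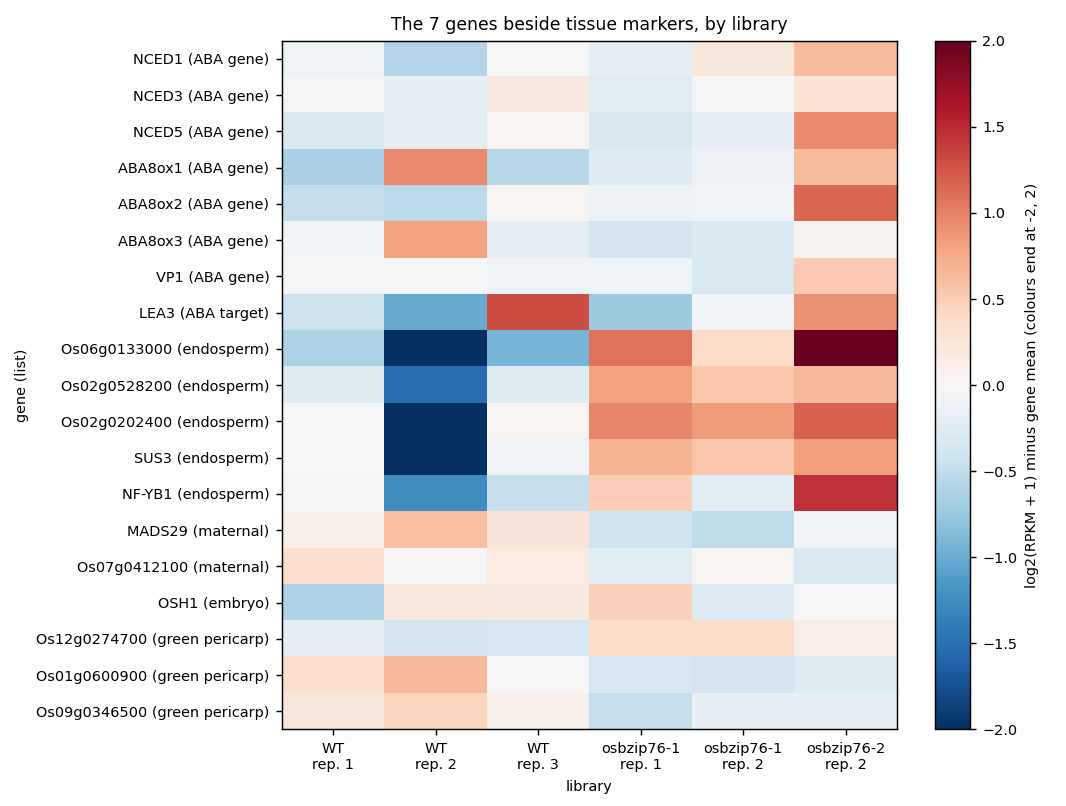
Level of the 7 genes, of the ABA-responsive gene LEA3 and of the tissue markers (rows) in each library (columns), as log2(RPKM + 1) minus the mean of the gene over the 6 libraries, with colours ending at -2 and 2. The endosperm markers are lowest in WT replicate 2, where ABA8ox1 and ABA8ox3 are highest, and 4 of 5 of them are highest in osbzip76-2 together with NCED1, NCED3, NCED5, ABA8ox2 and VP1.

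Across the 6 libraries the 5 genes tested fell into pairs of like pattern, given here as a description, since the points share library and depth. Pearson's r of log2(RPKM + 1) was 0.94 between NCED5 and ABA8ox2, 0.87 between NCED5 and VP1 and 0.78 between ABA8ox2 and VP1, values to which the osbzip76-2 library contributes its high point in each gene. ABA8ox1 and ABA8ox3 had an r of 0.77, with WT replicate 2 as the shared high point. The other 6 pairs lay between -0.21 and 0.48.

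The genes most like each of them over the 6 libraries, among all genes tested, were found by the same measure. For NCED5 it was Os06g0725200 (r = 0.99), and the closest gene with a name was DOF4 (r = 0.95), a zinc finger factor, which was at 13.1 to 19.0 RPKM in the other libraries and 28.3 RPKM in osbzip76-2. For ABA8ox2 it was Os01g0788400 (r = 1.00) and, among named genes, LYP6 (r = 0.97), at 74.0 RPKM in osbzip76-2 and 47.6 to 59.2 RPKM elsewhere. For VP1 it was Os03g0292700 (r = 0.99) and then SERK4 (r = 0.88). With so few libraries many genes are as close: 88 genes had an r with NCED5 at or above that of DOF4.

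For ABA8ox1 the most alike gene was Os05g0425700 (r = 1.00), at 20.3 RPKM in WT replicate 2 and 14.0 to 19.0 RPKM elsewhere. The closest named gene was orf173 (r = 0.96), at 4.17 RPKM in WT replicate 2 and 1.08 and 1.11 RPKM in the other WT libraries. For ABA8ox3 they were Os09g0514400 (r = 1.00) and TIFY3 (r = 0.98), a member of the TIFY family to which the jasmonate repressors belong. TIFY3 stood at 175 RPKM in WT replicate 2 and at 88.1 to 124 RPKM in the other libraries.

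The rest of the ABA pathway was read from 44 further identifiers listed by role, of which 26 have a name in the sources and 31 were abundant enough to be tested. Of these 31, 0 passed the limma threshold for both alleles against WT, with 1 higher and 4 lower at an unadjusted p under 0.05, where 6.65% and 7.08% of all genes were. With voom the count was also 0. Their median log2 fold change was -0.13, beside -0.02 for all genes tested, and 8 of 31 were above 0, against 47.3% of all genes. In 7 of 31 the groups did not overlap, 2 higher and 5 lower in the mutants, a share close to the 21.6% of all genes (9.34% higher and 12.3% lower). Of the 31, 2 peaked in osbzip76-2, against 13.5% of all genes, and 13 peaked in WT replicate 2, against 26.2%.

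The count of 0 held for each allele against WT and for osbzip76-2 against osbzip76-1. At an unadjusted p under 0.05, 1 was higher and 6 lower in osbzip76-1, and 2 higher and 2 lower in osbzip76-2, by limma. All genes gave 5.91% higher and 8.01% lower in osbzip76-1, and 5.38% and 1.68% in osbzip76-2. Voom called 0 of 31 in each. Their log2 fold changes had a median of -0.15 in osbzip76-1 and -0.02 in osbzip76-2, beside -0.02 for all genes tested in each.

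**Figure D5:**
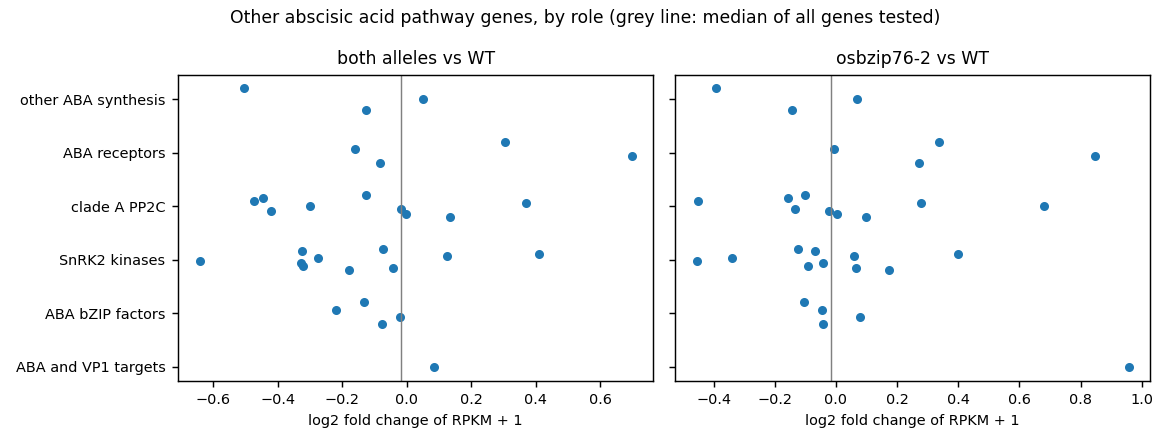
Log2 fold change of RPKM + 1 (horizontal axis) of the 31 other ABA pathway genes tested, by role (vertical axis), for both alleles against WT (left) and for osbzip76-2 against WT (right), with the median of all genes tested as a grey line. No point passed the adjusted threshold, and in the left panel 8 of 31 points lie above 0.

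In the phosphatase list, 9 of 9 genes were tested. PP2C06 was the most abundant, at 84.9, 93.3 and 90.7 RPKM in WT, then 79.8 and 83.0 RPKM in osbzip76-1 and 83.4 RPKM in the osbzip76-2 library, with a log2 fold change for both alleles of -0.13 (limma adjusted p = 0.602). PP2C09, singled out after its values were seen, was at 59.8 to 63.2 RPKM in WT and 41.1 to 45.9 RPKM in the mutants. Its groups were well apart, with a log2 fold change of -0.47 (95% interval -0.70 to -0.25), yet it missed the threshold (limma adjusted p = 0.114). PP2C49, also singled out after its values were seen, was at 3.35 and 2.62 RPKM in osbzip76-1, 10.02 RPKM in osbzip76-2 and 5.16 to 6.83 RPKM in WT. The difference between the alleles, 1.47 on the log2 scale with 1 osbzip76-2 library, missed the threshold (limma adjusted p = 0.113). The limma adjusted p was 0.0171 without WT replicate 2, when 1.23% of all genes were called.

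In the SnRK2 list, 10 of 10 kinases were tested and 8 were lower in the mutants by their log2 fold change, none of them past the threshold. SAPK9, the most abundant, was at 63.0, 84.5 and 87.9 RPKM in WT and 72.0, 73.0 and 81.4 RPKM in the mutants, so the groups overlapped. SAPK6, singled out after its values were seen, was at 29.4, 37.7 and 30.4 RPKM in WT, then 18.6 and 19.4 RPKM in osbzip76-1 and 23.3 RPKM in the osbzip76-2 library. All mutant values lay below all WT values, with a log2 fold change of -0.64 (95% interval -0.97 to -0.32, limma adjusted p = 0.129). In osbzip76-1 alone it was -0.74 (limma adjusted p = 0.136), and -0.63 without WT replicate 2 (limma adjusted p = 0.0283), when 2.44% of all genes were called.

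Among the ABA-related bZIP factors, 4 of 5 were tested, and the 4 log2 fold changes for both alleles ran from -0.22 to -0.02. TRAB1, the most abundant of those with a name and a partner of VP1 in activating ABA-responsive promoters, was at 24.2 to 26.7 RPKM in WT and 22.5 to 23.4 RPKM in the mutants. The groups did not overlap, but the log2 fold change was only -0.13 (95% interval -0.36 to 0.10, limma adjusted p = 0.584). TRAB1 and ABA8ox2 lie near each other on chromosome 8, with 2 genes between them in the gene table. In the osbzip76-2 library, where ABA8ox2 was highest, TRAB1 was at 23.4 RPKM. Any part of their position in these levels was not tested.

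None of the 8 receptor identifiers and none of the 6 further synthesis identifiers has a name in the sources. Among the receptor identifiers, 4 were tested and Os02g0255500, singled out after its values were seen, was at 4.40, 4.21 and 5.20 RPKM in WT, then 8.19 and 7.04 RPKM in osbzip76-1 and 9.04 RPKM in the osbzip76-2 library. It was higher in every mutant library than in any WT library, with a log2 fold change of 0.70 (95% interval 0.37 to 1.03, limma adjusted p = 0.113). Among the synthesis identifiers, 3 were tested. The groups overlapped for Os03g0810800, the most abundant (log2 fold change 0.05), and for Os06g0670000 (-0.13). Os04g0448900, singled out after its values were seen, was at 5.51 to 6.79 RPKM in WT and 3.36 to 4.28 RPKM in the mutants (log2 fold change -0.50, limma adjusted p = 0.225). Os07g0154100, also noticed from its values, had 0 reads in each WT library and 1, 24 and 39 reads in osbzip76-1 replicates 1 and 2 and osbzip76-2, too few to be tested.

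Transcripts of maturation genes that ABA and VP1 are known to activate were scarce at this stage. Of 6 such targets, 5 had a mean under 1 RPKM. OSEM, the rice Em gene and a classical VP1 target, had 5 reads in all 6 libraries together. RAB16D also had 5 reads, RAB16C had 27 and RAB16B 110, and for these dehydrin genes the osbzip76-2 library held 3, 21 and 33 reads, the most of any library. The remaining identifier of the list, Os11g0454300, had 46 reads, with the most in WT replicate 3 (26 reads) and 16 in osbzip76-2.

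LEA3, which encodes a late embryogenesis abundant protein, was the only target tested. It was at 10.02, 6.30 and 35.1 RPKM in WT, then 7.84 and 13.2 RPKM in osbzip76-1 and 26.7 RPKM in the osbzip76-2 library. The WT range spanned all mutant values, and WT replicate 3, not osbzip76-2, was the highest. The log2 fold change in osbzip76-2 was 0.96 with a 95% interval from -0.94 to 2.86 (limma adjusted p = 0.992), so the data do not fix the direction of LEA3 in either allele.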

How the data were processed

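Poly(A) RNA was sequenced from NEBNext Ultra libraries, per the labels' protocols. The authors deposited RPKM values per gene on build IRGSP-1.0, per the file headers and the submitters' processing notes. Aligner, counter and use of strand: not given in the sources used here, so overlapping genes and paralogs may share reads. The labels list 7 libraries, 6 of which had a column, matched by name, and 0 other per-sample columns were left out.

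Reads were recovered from the RPKM steps: 100.0% of 168975 values above 0 were whole within 0.02 reads. Recovered totals were 19900851 to 24887953 reads per library. Exact 95% Poisson intervals use these reads and cover counting error only, since reads from PCR libraries are not independent molecules.

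Genes with a mean of at least 1 RPKM (21454, including 5 of the 7 genes) entered limma 3.58.1 (R 4.3.3; trend, two-sided) on log2(RPKM + 1), which understates changes of low genes. WT was compared with both alleles in a fit of 3 against 3, and the alleles in a 3-group fit. P-values were Benjamini-Hochberg adjusted over all genes tested, with a threshold of 0.05, and the script was tested on simulated data. Alternatives were a pseudocount of 0.1, other filters, TMM scaling, voom, a replicate block and leaving out each library.

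The genes and lists were chosen with earlier results of these data known. The text names all 7 genes, the most abundant named gene of each list and, per gene, the closest by Pearson's r; the ABA and VP1 targets are given as a whole list, and others are marked as singled out or noticed from their values, or are tissue markers or given to complete a list. Gene names come from a gene table of another assembly, which matched 26 of 44 further identifiers, so no coordinates are given. Promoter motifs and protein identity were not analysed here. The level of OsbZIP76 was not analysed here and gives no check of the genotypes.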

Additional observations from a re-analysis of the deposited data

How the results depend on the processing

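Of the values recomputed for the 7 genes under all alternatives, 240 kept their direction and their side of the threshold, 11 turned sign and 3 passed the threshold, and the cause was not tested. The 3 were ABA8ox2 in osbzip76-2 against WT with voom (1.60) and, without WT replicate 2, ABA8ox2 and ABA8ox1. On leaving out 1 library at a time, the log2 fold change for both alleles ran from -0.10 to 0.69 for ABA8ox1, -0.10 to 0.53 for NCED5, -0.15 to 0.27 for VP1, 0.24 to 0.87 for ABA8ox2 and -0.58 to -0.09 for ABA8ox3. The negative values of NCED5 and VP1 came without the osbzip76-2 library. In osbzip76-1 it ran from -0.18 to 0.00042 for NCED5, -0.38 to 0.42 for ABA8ox1 and -0.71 to -0.23 for ABA8ox3. In osbzip76-2 it ran from -0.31 to 0.17 for ABA8ox3, 1.38 to 1.66 for ABA8ox2 and 0.45 to 1.24 for ABA8ox1. With voom ABA8ox1 in osbzip76-1 was at 0.00099. Part of the 240 values could not move. A changed filter, or leaving out a library outside the comparison, leaves the log2 fold change as it was. NCED1 and NCED3 had no test in the main fit, and so no side of the threshold there. The count of 240 therefore does not show how firm the values are.

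The mean ratio of the ABA8ox to the NCED sum ran from 4.46 to 7.45 in WT and from 4.70 to 5.66 in the mutants. The number of all genes called moved more. For both alleles it was 83, and 52 without a filter, 54 with voom and 34 to 108 on leaving out 1 library. For osbzip76-1 it was 82, and 38 without a filter, 54 with voom and 17 to 525 without 1 library. For osbzip76-2 it was 148, and 29 with a pseudocount of 0.1, 282 without a filter, 241 with a minimum of 0.25 RPKM and 36 to 529 without 1 library. Between the alleles it was 46, and 2, 179 and 105 under the same 3 settings, 14 with voom and 0 to 264 without 1 library. The highest of each range came without WT replicate 2. The lowest came without osbzip76-1 replicate 2 for both alleles, without osbzip76-1 replicate 1 for osbzip76-1, without WT replicate 1 or osbzip76-1 replicate 1 for osbzip76-2, and without either osbzip76-1 replicate between the alleles. In the other ABA pathway genes the count ran from 0 to 1 for osbzip76-1 against WT and for the alleles against each other, the 1 being SAPK6 and PP2C49, without WT replicate 2.

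Same-numbered libraries of WT and osbzip76-1 showed no shared deviation (r = -0.011 for number 1 and -0.097 for number 2, over genes). The deviations of the 2 osbzip76-1 libraries from their mean mirror each other, so these values are not separate and could miss a pairing. The numbers were not taken as pairs in the main fits. With a replicate block the calls were 32 for both alleles and 78 for osbzip76-2, ABA8ox1 for both alleles was at -0.23 and NCED5 in osbzip76-1 at 0.00042. The planned edgeR and DESeq2 fits were not run, because the deposited unit is RPKM. Depth limits NCED1 and NCED3, with 12 to 94 reads per library, and the osbzip76-2 group limits every statement on that allele to 1 library.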
